A study of Danio rerio with 11 samples.

Results

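The 43 genes described here encode the glutathione, thioredoxin and related antioxidant systems. They are all genes on the array whose symbol starts with gst, gpx, prdx, txn, glrx, sod, keap1, nfe2l, gcl, gsr, nqo, mgst or sesn, together with catalase (cat). Genes of the gss and hmox families are not analysed here. They are 43 of the 7792 genes that the array annotation names singly. Each gene is represented by its probe set with the highest mean over the 11 arrays. Only 3 genes, prdx1, glrx3 and txndc5, had several probe sets. A pair of probe sets annotated to gstr together with the transferrin gene tfa was not used.

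Expression was measured on 1-colour Affymetrix zebrafish arrays in livers dissected from 4-day-old larvae. Control livers (4 arrays) came from ahcy +/+ larvae given vehicle, and azacytidine livers (4 arrays) from ahcy +/+ larvae given 1 mM azacytidine, a cytidine analogue that traps DNA methyltransferases once built into DNA. Mutant livers (3 arrays) came from ahcy -/- larvae given vehicle, and the labels do not name the allele. The enzyme made by ahcy splits S-adenosylhomocysteine, the by-product of methylation, into adenosine and homocysteine. All larvae were injected into the yolk at 2 days, and all RNA was amplified in 2 rounds. The labels do not say whether an array holds 1 liver or a pool, nor whether arrays of a group came from separate clutches, so the p-values rest on a spread that may be partly technical. The question was how expression differs after azacytidine and in ahcy mutants, and with 3 or 4 arrays a group the intervals below are wide. Methylation was not measured on these arrays.

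Cells keep peroxides, quinones and other electrophiles in check with thiol chemistry. Glutathione is built from glutamate, cysteine and glycine. Glutathione S-transferases attach it to electrophiles, glutathione peroxidases spend it on peroxides, and glutathione reductase restores it with NADPH. Thioredoxins and thioredoxin reductase do the same service for peroxiredoxins and for protein disulphides. The transcription factor Nrf2 raises many of these genes when its inhibitor Keap1 is modified by electrophiles. Liver is the main site of glutathione synthesis and of conjugation. The transsulfuration route draws cysteine from homocysteine, which ties these systems to the methionine cycle.

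The targeted gene, ahcy, read 12.45, 12.3, 12.36 and 12.47 in controls, 12.34, 12.34, 12.06 and 12.61 with azacytidine, and 12.11, 11.47 and 11.5 in mutants, and was 0.70 ± 0.16 lower in mutants than in controls (limma adjusted p = 0.017). The labels do not say where in the gene the mutation lies, so a transcript level checks the genotype only in part. Levels are deposited log2 values, so a difference of 1 is a doubling of signal, and levels of different probe sets cannot be set against each other. The array medians lay between 5.97 and 6.14 in controls, 5.89 and 5.97 with azacytidine, and 6.13 and 6.17 in mutants. Over all 12784 probe sets the median difference was -0.05 for azacytidine minus control, 0.08 for mutant minus control and 0.14 for mutant minus azacytidine. Centring each array on its median moved these to 0.05, -0.03 and -0.08. The mean of 19 hepatocyte markers, none of them under the 10th percentile of its arrays throughout a group, ranged from 11.74 to 12.0 in controls, 12.29 to 12.47 with azacytidine and 9.95 to 10.84 in mutants. The mean of 16 epidermis markers ranged from 8.32 to 8.81, 7.15 to 8.35 and 9.89 to 10.96 in the same order, and that of 18 skeletal muscle markers from 8.97 to 9.91, 8.23 to 9.06 and 10.64 to 11.23. For 16 neural markers the ranges were 5.78 to 8.29, 5.26 to 5.66 and 7.02 to 7.6. The mean of 13 leukocyte markers was 5.42 to 5.97 in controls, 6.26 to 6.88 with azacytidine and 6.01 to 6.82 in mutants, so both other groups lay above the controls. Of these markers only cd74a and cd74b were called with azacytidine, higher by 5.18 and 4.18 (limma adjusted p = 0.0011 and 0.0025). These were the largest differences of the 13. In mutants against controls, 3 of the 13 were called higher and 1 lower, against 6.23% and 5.87% of all probe sets. They included cxcr4b at 2.38 and mpx at -3.29 (limma adjusted p = 0.0046 and 0.0031), so the mutant mean joins opposed differences. The cxcr4b level lay under the 10th percentile on 3 control and 4 azacytidine arrays. With levels set at that percentile its mutant difference was 1.8 (limma adjusted p = 0.0064). The 3' minus 5' signal of the acta1 control probe sets was 3.16 to 4.92 in controls, 1.88 to 4.02 with azacytidine and 5.59 to 6.21 in mutants. Such a signal is used as a measure of RNA integrity and amplification length, but acta1 is a skeletal muscle actin gene. Azacytidine 5 had the lowest value and the lowest muscle marker mean (1.88 and 8.23), and mutant 6 the highest of both (6.21 and 11.23). RNA integrity and muscle content were not told apart here. The marker and actin values moved with the groups, and their part in the results below was not tested unless a value is given.

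With azacytidine 2 of the 43 genes rose, the thioredoxin gene txnb and the Nrf2 inhibitor gene keap1a, and 0 fell. Over all probe sets, 0.399% were called higher and 0.18% lower (0.579% either way) at an adjusted p under 0.05 in limma. At an unadjusted p under 0.05, 5 members were higher and 0 lower, against 5.23% and 9.93% of all probe sets. The median difference of the 43 was 0.07, and in 2 genes every azacytidine array lay above every control, as it did in 3.71% of all probe sets. The leukocyte marker mean was also higher on every azacytidine array than on every control, and its part in these rises was not tested. The markers cd74a and cd74b, the only ones called, weigh most in that rise of the mean. At an unadjusted p under 0.05 in limma, 5 of the 13 markers were higher and 0 lower. Leukocyte content and a rise of single markers were not told apart here. In the mutants 8 genes fell and 0 rose against controls, where 5.87% and 6.23% of all probe sets were called lower and higher (12.1% either way). The 8 were gstt1a, gstt1b, gstk1, mgst3a, gpx4a, prdx2, prdx4 and sod1, which conjugate electrophiles or remove peroxide and superoxide. Unadjusted, 11 members were lower and 6 higher against 11.3% and 15.2%, and the median was 0.0 (0.11 after cyclic loess, -0.11 after centring). Every mutant lay below every control in 12 genes and above in 4, against 10.6% and 12.0% of all probe sets. Between mutants and azacytidine, 12 members were called lower and 3 higher, against 11.1% and 18.2% of all probe sets (29.4% either way). At an unadjusted p under 0.05, 15 were lower and 5 higher, against 15.1% and 25.3%. Every mutant lay below every azacytidine array in 13 genes and above in 4, against 13.8% and 23.5%. That comparison shares its mutant arrays with the comparison of mutants and controls, so the 8 genes that were lower in both are not independent counts.

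**Figure D1:**
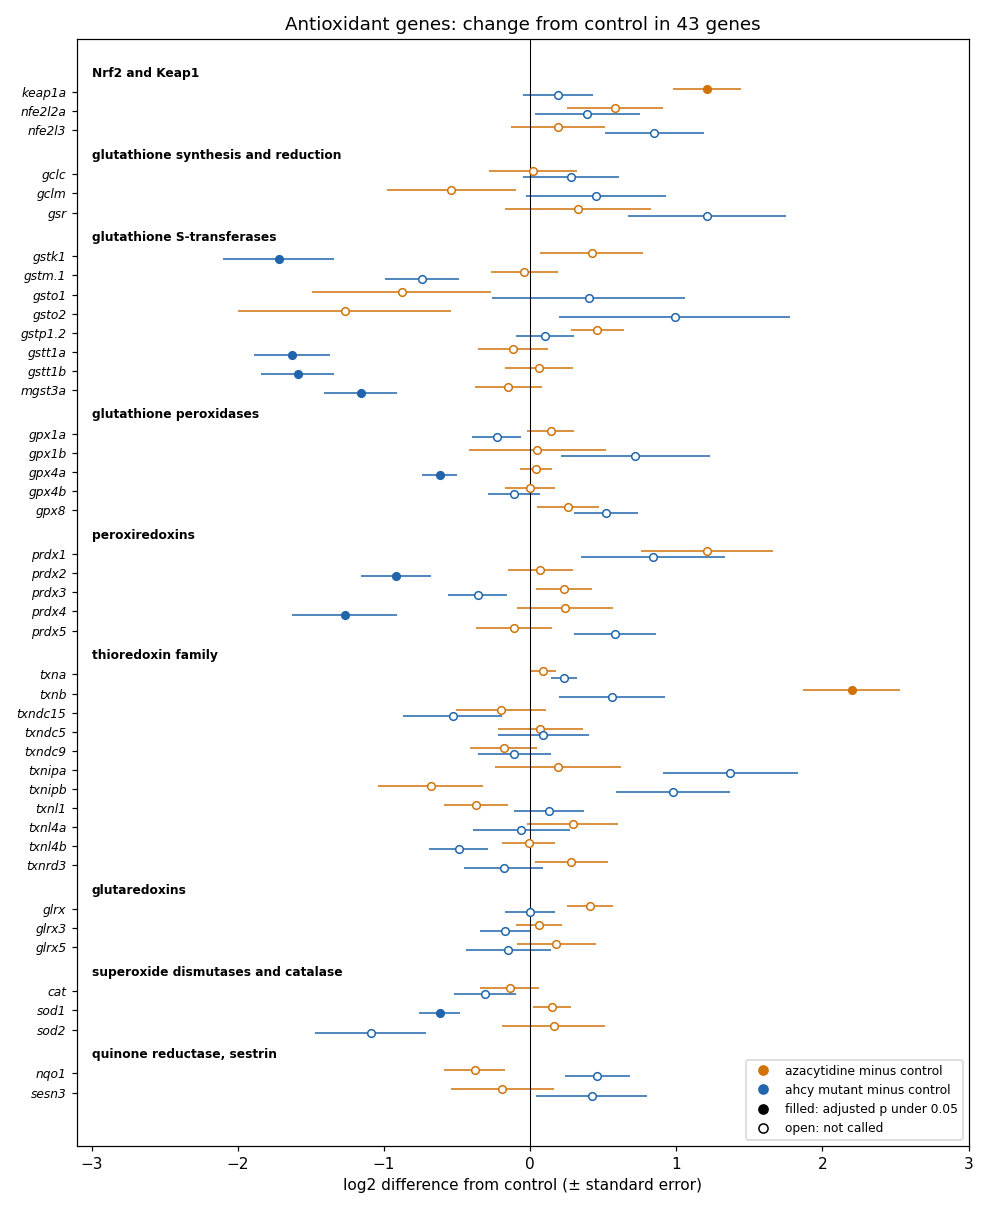
Log2 difference from control (x axis, ± standard error of the limma fit over 11 arrays) of the 43 genes, grouped by role, for azacytidine (orange) and ahcy mutants (blue). Filled points passed an adjusted p of 0.05: txnb and keap1a lie to the right with azacytidine, and 8 genes lie to the left in mutants.

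Keap1 holds Nrf2 in the cytoplasm and presents it for degradation. The keap1a level was 6.46, 6.5, 6.4 and 6.8 in controls, 7.39, 7.94, 7.77 and 7.91 with azacytidine, and 7.1, 6.56 and 6.54 in mutants. Every azacytidine array lay above every control and mutant array. The gene rose by 1.21 ± 0.23 with azacytidine (2.32-fold, limma adjusted p = 0.038) and was 1.02 ± 0.24 lower in mutants than with azacytidine (adjusted p = 0.0095). Its rise against control kept its call in only 2 of the 11 fits that left out 1 array, with adjusted p from 0.031 to 0.11 and differences of 1.15 to 1.33. With the mean of neural, muscle and epidermis markers as a covariate it was 1.24 and not called (adjusted p = 0.45). That fit called 0 of 12784 probe sets with azacytidine. That covariate did not overlap between azacytidine and control arrays, so it and the treatment cannot be told apart. For keap1a itself mutants and controls overlapped, with a difference of 0.19 and a 95% interval of -0.34 to 0.73.

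The gene for Nrf2 itself, nfe2l2a, read 4.55, 6.07, 5.56 and 5.95 in controls, 6.26, 6.29, 5.65 and 6.25 with azacytidine, and 6.38, 5.48 and 5.9 in mutants. All 3 groups overlapped. Its difference of 0.58 ± 0.33 with azacytidine did not pass the test (adjusted p = 0.44), nor did that of 0.39 ± 0.36 in mutants (adjusted p = 0.55). The related factor gene nfe2l3 differed by 0.19 ± 0.32 and 0.85 ± 0.34, and neither passed (adjusted p = 0.85 and 0.14). The mutant difference of nfe2l3 was 1.17 and was called without mutant 3, whose level of 5.62 lay below the 6.56 and 6.64 of the other mutants. Among 8 measured Nrf2 partners and regulators from a list of 21, 0 were called in either comparison with control in limma. Of all probe sets, 0.579% were called either way with azacytidine and 12.1% in mutants. At an unadjusted p under 0.05, 3 were lower and 0 higher with azacytidine, and 0 in mutants either way. At that level 9.93% of all probe sets were lower and 5.23% higher with azacytidine, and 11.3% lower and 15.2% higher in mutants. The 3 included cul3a, which encodes the scaffold of the ligase that Keap1 serves, at -0.70 ± 0.23 (adjusted p = 0.17), with every azacytidine array below every control.

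Glutathione synthesis starts with glutamate-cysteine ligase, whose catalytic and modifier subunits are encoded by gclc and gclm, and gsr encodes glutathione reductase. None of the 3 passed the test in any comparison, where 0.579% to 29.4% of all probe sets were called either way. In limma only gsr in mutants against controls had an unadjusted p under 0.05 (0.043). The gclc level ranged from 8.12 to 9.07 in controls, 8.22 to 9.03 with azacytidine and 8.52 to 9.5 in mutants. Its difference of 0.02 with azacytidine had a 95% interval of -0.63 to 0.68, so changes within that interval remain compatible with these arrays. For gclm the differences were -0.54 ± 0.44 with azacytidine and 0.45 ± 0.48 in mutants (adjusted p = 0.63 and 0.61). The gsr level was 6.95, 8.82, 8.55 and 8.27 in controls and 9.3, 9.22 and 9.56 in mutants, so each mutant lay above each control. That difference was 1.21 ± 0.54 and did not pass (adjusted p = 0.17). With azacytidine gsr spread from 7.15 to 9.46.

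The arrays of a group fell in a shared order for several of these genes. Within controls, array 1 was the lowest and array 2 the highest for nfe2l2a, gclc, gclm, gsr, the thioredoxin reductase gene txnrd3 and txnipb, and azacytidine array 5 was the lowest of its group for the same 6. This pattern was picked out from these members after their values were seen, so a larger share among them is no test of it. It held for 6 of 43 members (14%) and for 347 of 12784 probe sets (2.71%). For txnrd3 the controls read 10.38, 11.4, 11.27 and 11.39 and the azacytidine arrays 11.52, 11.46, 10.81 and 11.77. Control 2 is also the array with the highest mean of 14 exocrine pancreas markers, 10.31 against 5.53 to 7.58 in the other controls. Azacytidine array 5 had a pancreas mean of 5.34, within the range of 5.32 to 7.21 of its group, and the part of other tissue in this pattern was not tested.

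**Figure D2:**
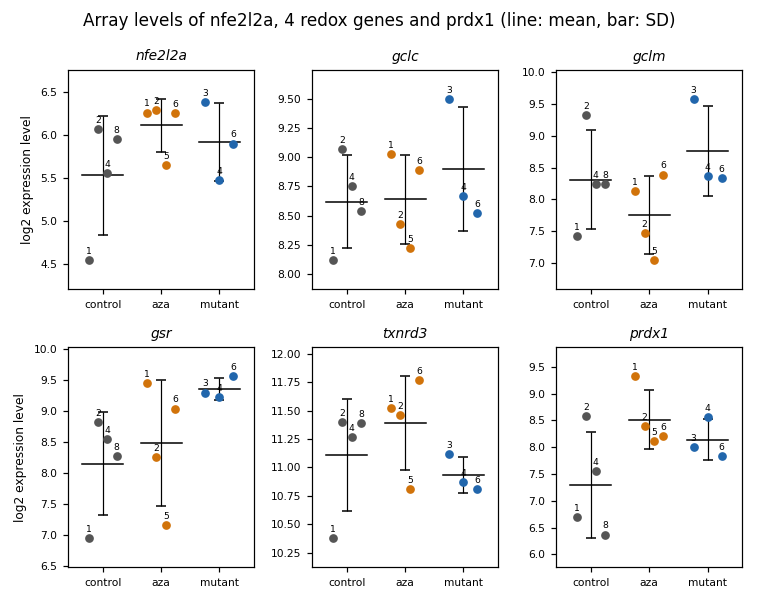
Log2 level (y axis) on each array of nfe2l2a, gclc, gclm, gsr, txnrd3 and prdx1 in control, azacytidine and mutant livers, with the sample number beside each point, the group mean as a line and the SD as a bar. Control 1 and azacytidine 5 are the lowest of their groups in the first 5 genes, while for prdx1 the lowest control is control 8.

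Of 8 glutathione S-transferase genes, 4 were called lower in mutants, against 5.87% of all probe sets. With azacytidine 0 of the 8 were called, where 0.579% of all probe sets were called either way. Theta class genes fell by about the same amount. The gstt1a level was 11.57, 11.58, 11.72 and 12.39 in controls, 11.72, 11.84, 11.68 and 11.56 with azacytidine, and 9.94, 10.86 and 9.76 in mutants, a fall of 1.63 ± 0.26 against controls (3.09-fold, adjusted p = 0.0025). The gstt1b level was 7.91, 8.37, 7.77 and 7.98 in controls, 8.19, 8.15, 8.3 and 7.65 with azacytidine, and 6.49, 6.37 and 6.39 in mutants. It fell by 1.59 ± 0.25 (3.01-fold, adjusted p = 0.002), and its SD over the mutants, 0.06, was the smallest of any member there. For both genes each mutant lay below each of the other 8 arrays, and both calls held in all 11 fits that left out 1 array.

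The kappa class gene gstk1, whose enzyme works in mitochondria and peroxisomes in mammals, read 7.14, 6.78, 6.93 and 8.3 in controls, 7.63, 7.94, 8.21 and 7.05 with azacytidine, and 5.5, 5.83 and 5.36 in mutants. It fell by 1.72 ± 0.38 (3.3-fold, adjusted p = 0.013). Without mutant 6 the adjusted p was 0.06. The membrane-bound transferase gene mgst3a was tightly set in controls (10.46 ± 0.05, SD, n = 4) and read 8.75, 9.7 and 9.45 in mutants, a fall of 1.16 ± 0.25 (adjusted p = 0.012) whose call was lost without controls 2 and 4. Azacytidine arrays overlapped the controls for mgst3a, with azacytidine 6 at 9.81 below the other 3, which lay between 10.28 and 10.62. The mu class gene gstm.1 was lower in each mutant than in each control but did not pass (-0.74 ± 0.25, adjusted p = 0.079). Its mutant levels were 10.88, 11.24 and 9.9. Without mutant 4 the difference was -1.02 and was called (adjusted p = 0.026), and without mutant 6 it was -0.35. The gene gstp1.2, of the pi class that Nrf2 is known to raise in zebrafish, differed by 0.46 ± 0.18 with azacytidine and 0.10 ± 0.2 in mutants (adjusted p = 0.25 and 0.8).

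The omega class genes gsto1 and gsto2 were set apart by a single azacytidine array. The gsto2 level was 8.0, 9.25, 8.97 and 10.04 in controls, 6.78, 7.3, 6.65 and 10.46 with azacytidine, and 9.98, 9.7 and 10.47 in mutants. On 3 azacytidine arrays it lay below every control, and on the remaining one, azacytidine 6, above every control. The same array was apart for gsto1, at 6.1 against 3.22, 3.65 and 3.38, which lay below the 10th percentile of their arrays (4.11 to 4.32 in this group). The gsto2 difference between mutants and azacytidine, 2.25 ± 0.79, was called (adjusted p = 0.049). Without azacytidine 6 it was 3.14, and the call was lost in 9 of 11 fits that left out 1 array. Against control, gsto2 differed by -1.27 ± 0.73 with azacytidine and 0.99 ± 0.79 in mutants (adjusted p = 0.45 and 0.48).

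Among 5 glutathione peroxidase genes, only gpx4a was called lower in mutants, against 5.87% of all probe sets. With azacytidine 0 of the 5 were called, where 0.579% of all probe sets were called either way. Gpx4 enzymes reduce lipid hydroperoxides within membranes. The gpx4a level was 12.78, 12.99, 12.69 and 13.09 in controls, 12.99, 12.99, 12.84 and 12.89 with azacytidine, and 12.48, 12.25 and 12.07 in mutants. Each mutant lay below each other array. The fall of 0.62 ± 0.12 (1.54-fold, adjusted p = 0.0063) was small but held its call in all 11 fits without 1 array. Its copy gpx4b overlapped between all groups, with a mutant difference of -0.11 and a 95% interval of -0.51 to 0.29. The cytosolic peroxidase genes gpx1a and gpx1b differed by -0.23 ± 0.17 and 0.72 ± 0.51 in mutants (adjusted p = 0.44 and 0.41). Mutant arrays of gpx1b spread from 7.64 to 9.33. The ER-resident gpx8 differed by 0.52 ± 0.22 (adjusted p = 0.16), and by 0.78 with a call without mutant 4.

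**Figure D3:**
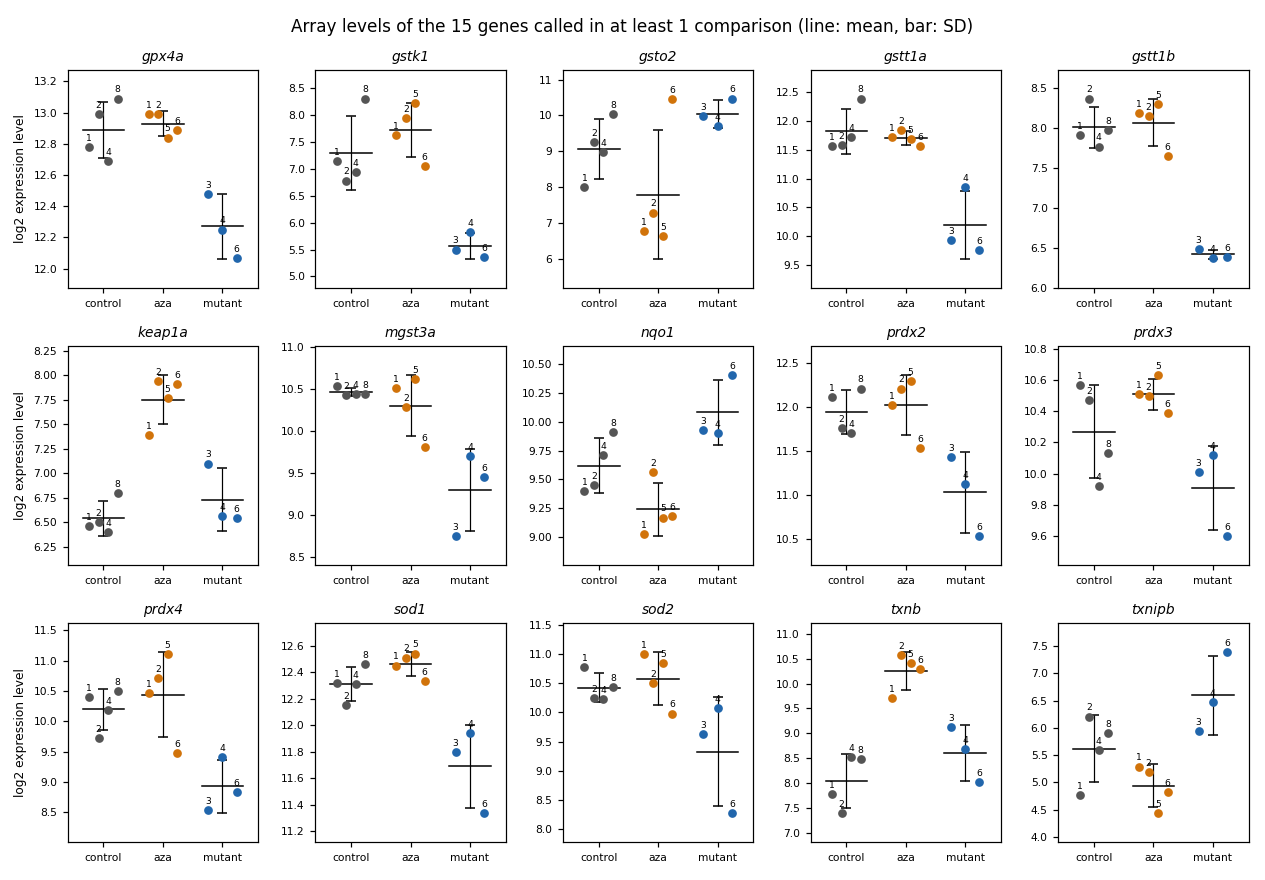
Log2 level (y axis, own scale per gene) on each array of the 15 genes called in at least 1 of the 3 comparisons, with sample numbers, group mean as a line and SD as a bar. In txnb and keap1a the azacytidine arrays stand above both other groups, while in gstt1a, gstt1b, gstk1, mgst3a, gpx4a, prdx2, prdx4 and sod1 the mutants stand below the controls.

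Thioredoxin is the small disulphide-reducing protein of the cytosol. Of its 2 zebrafish genes on the array, txnb responded to azacytidine. Its level was 7.78, 7.4, 8.52 and 8.48 in controls, 9.71, 10.57, 10.41 and 10.3 with azacytidine, and 9.13, 8.68 and 8.02 in mutants. The lowest azacytidine array lay above the highest control and the highest mutant. The rise of 2.20 ± 0.33 (4.6-fold, adjusted p = 0.01) was the largest difference among the 43 genes in that comparison, and its call held in all 11 fits without 1 array. The rise was 2.68 with the covariate of neural, muscle and epidermis markers (adjusted p = 0.13) and 1.74 with that of hepatocyte markers (adjusted p = 0.41), neither called. Of 12784 probe sets these fits called 0 and 1 with azacytidine. Neither covariate overlapped between azacytidine and control arrays, so these fits cannot tell tissue content from treatment. In mutants the difference from controls was 0.56 with a 95% interval of -0.21 to 1.34, and mutants were 1.64 ± 0.36 below azacytidine (adjusted p = 0.0057). The copy txna stayed between 12.55 and 12.96 on all 11 arrays. Its azacytidine difference was 0.09 with a 95% interval of -0.1 to 0.28. Each mutant lay above each control for txna (0.23 ± 0.09, adjusted p = 0.13), and after cyclic loess that difference was 0.40 and was called.

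Of 11 genes with a txn symbol, txnb alone was called against control in either comparison. Of all probe sets, 0.579% were called either way with azacytidine and 12.1% in mutants. The thioredoxin-interacting protein genes txnipa and txnipb encode arrestin-family inhibitors of thioredoxin that also restrain glucose uptake in mammals. The txnipa level was 9.48, 9.03, 8.01 and 8.56 in controls, 7.95, 9.41, 8.62 and 9.87 with azacytidine, and 9.61, 10.41 and 10.39 in mutants. Each mutant lay above each control, yet the difference of 1.37 ± 0.46 did not pass (adjusted p = 0.076). For txnipb the levels were 4.77, 6.21, 5.6 and 5.9, then 5.29, 5.19, 4.44 and 4.82, then 5.94, 6.47 and 7.39. The difference from control was -0.68 ± 0.36 with azacytidine and 0.98 ± 0.39 in mutants (adjusted p = 0.4 and 0.13), and mutants lay 1.66 ± 0.39 above azacytidine (adjusted p = 0.0085). That call held in all 11 fits without 1 array.

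The remaining txn genes gave small differences. For txnrd3 these were 0.28 ± 0.25 with azacytidine and -0.18 ± 0.27 in mutants. The disulphide isomerase gene txndc5 differed by 0.07 ± 0.29 and 0.09 ± 0.31, and its 3 dimmer probe sets differed from control by -0.32 to 0.07 and 0.23 to 0.7, with 0 called. The dimmest of them was 1.02 ± 0.26 higher in mutants than with azacytidine (adjusted p = 0.013), while the brightest differed by 0.02. It lay under the 10th percentile on 2 control and 2 azacytidine arrays. The genes txndc9, txndc15 and txnl1 ranged from -0.37 to -0.18 with azacytidine and from -0.53 to 0.13 in mutants. Despite its symbol, txnl4a encodes a subunit of the splicing machinery, and its differences were 0.29 ± 0.31 and -0.06 ± 0.33. The related txnl4b lay below the 10th percentile of the array on all 3 mutants. Its mutant difference was -0.49 ± 0.2 (adjusted p = 0.14), or -0.25 with levels set at that percentile. After cyclic loess it was -0.65 and was called (adjusted p = 0.041).

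Peroxiredoxins are the thiol peroxidases that thioredoxin recharges. Of 5 genes, prdx2 and prdx4 were called lower in mutants, against 5.87% of all probe sets. With azacytidine 0 of the 5 were called, where 0.579% of all probe sets were called either way. The prdx2 level was 12.11, 11.76, 11.7 and 12.21 in controls, 12.02, 12.21, 12.3 and 11.53 with azacytidine, and 11.43, 11.12 and 10.53 in mutants. It fell by 0.92 ± 0.24 (1.89-fold, adjusted p = 0.026), with each mutant below each other array. Prdx2 is abundant in red cells of mammals, and the mean of 11 erythrocyte markers was 6.46 to 6.96 in controls and 6.56 to 7.72 in mutants. At an unadjusted p under 0.05 in limma, 4 of the 11 were higher and 0 lower in mutants. Of all probe sets, 15.2% were higher and 11.3% lower at that level. None of the 11 was called, against 12.1% of all probe sets either way. The part of red cell content in the prdx2 level was not tested. For prdx4, whose enzyme sits in the ER, controls read 10.4, 9.73, 10.18 and 10.5, azacytidine arrays 10.47, 10.71, 11.11 and 9.47, and mutants 8.54, 9.41 and 8.84. It fell by 1.27 ± 0.36 (2.42-fold, adjusted p = 0.04). Calls of prdx2 and prdx4 were lost after cyclic loess and in 4 and 7 of the 11 fits without 1 array.

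The mitochondrial prdx3 differed by -0.36 ± 0.2 in mutants (adjusted p = 0.29) and was called only against azacytidine, at -0.60 ± 0.2 (adjusted p = 0.045), a call lost in 8 of 11 fits without 1 array. In contrast to these, prdx5 was higher in each mutant (9.9, 10.18 and 9.97) than in each control (9.7, 9.76, 9.55 and 8.72), without passing the test (0.58 ± 0.28, adjusted p = 0.2). The Nrf2 target prdx1 was measured by 3 probe sets, which are not replicates. The brightest read 6.7, 8.58, 7.55 and 6.37 in controls and 9.32, 8.39, 8.11 and 8.21 with azacytidine, a difference of 1.21 ± 0.45 (adjusted p = 0.23) with control 2 inside the azacytidine range. On the others every azacytidine array lay above every control, and the differences were 1.23 ± 0.33 and 1.12 ± 0.28 (adjusted p = 0.11 and 0.095). None of the 3 was called, and in mutants they differed from control by 0.4 to 0.84. Without controls 2 and 4 the brightest differed by 1.60 in mutants and was called (adjusted p = 0.048).

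Glutaredoxins use glutathione to reduce protein disulphides and to carry iron-sulphur clusters. None of the 3 genes was called in any comparison, where 0.579% to 29.4% of all probe sets were called either way. The glrx level ranged from 10.79 to 11.46 in controls, 11.38 to 11.68 with azacytidine and 10.9 to 11.2 in mutants, with a difference of 0.41 ± 0.16 with azacytidine (adjusted p = 0.24). Mutants differed from controls by 0.00 ± 0.17. The iron-handling genes glrx3 and glrx5 differed by 0.06 ± 0.16 and 0.18 ± 0.27 with azacytidine, and by -0.17 ± 0.17 and -0.15 ± 0.29 in mutants.

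Superoxide dismutases turn superoxide into hydrogen peroxide, which catalase splits. The cytosolic sod1 read 12.32, 12.15, 12.31 and 12.46 in controls, 12.45, 12.51, 12.54 and 12.33 with azacytidine, and 11.8, 11.94 and 11.34 in mutants. Each mutant lay below each other array, and the fall of 0.62 ± 0.14 (1.53-fold, adjusted p = 0.014) kept its call in all 11 fits without 1 array but not with a variance prior that ignores the mean level. The mitochondrial sod2 read 10.77, 10.24, 10.23 and 10.43 in controls and 9.63, 10.07 and 8.28 in mutants. It was lower in each mutant than in each control, and the difference of -1.09 ± 0.38 did not pass (adjusted p = 0.084). Without mutant 4 it was -1.46 and was called (adjusted p = 0.042), and without mutant 6 it was -0.57. Against azacytidine the sod2 difference was -1.26 ± 0.38 (adjusted p = 0.027), a call lost without azacytidine 1, 2 or 5 or mutant 6, with differences down to -0.73 and adjusted p up to 0.1. Catalase read 11.58 to 11.89 in controls and 11.29 to 11.55 in mutants, without overlap, and its difference of -0.31 ± 0.21 did not pass (adjusted p = 0.4). On azacytidine array 5 it was 10.92, against 11.73 to 11.93 on the other 3.

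The quinone reductase gene nqo1, a classical Nrf2 target, was called only between mutants and azacytidine. Its levels were 9.4, 9.45, 9.71 and 9.91 in controls, 9.03, 9.56, 9.17 and 9.18 with azacytidine, and 9.93, 9.9 and 10.4 in mutants. Mutants lay 0.84 ± 0.22 above azacytidine (1.79-fold, adjusted p = 0.016), a call lost without mutant 6. The differences from control were -0.38 ± 0.21 with azacytidine and 0.46 ± 0.22 in mutants (adjusted p = 0.42 and 0.22). The sestrin gene sesn3, whose product links stress to nutrient signalling, differed by -0.19 ± 0.35 and 0.42 ± 0.38.

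Several genes occur in 2 zebrafish copies, and the difference between copies within an array describes how far they moved together. Its size depends on the probes, so only its change between groups can be read. No test was run on these differences. For txnb minus txna it ranged from -5.15 to -4.17 in controls, -3.04 to -2.26 with azacytidine and -4.69 to -3.83 in mutants, so only azacytidine was apart. For gpx4a minus gpx4b it was 1.53 to 1.93 in controls, 1.45 to 1.93 with azacytidine and 1.11 to 1.47 in mutants, with every mutant below every control and mutant 6 inside the azacytidine range. For gstt1a minus gstt1b the ranges were 3.21 to 4.41, 3.38 to 3.91 and 3.37 to 4.49, and those of mutants and controls overlapped. The omega pair cannot be read this way, since gsto1 lay under the 10th percentile on 3 azacytidine arrays and 1 control.

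**Figure D4:**
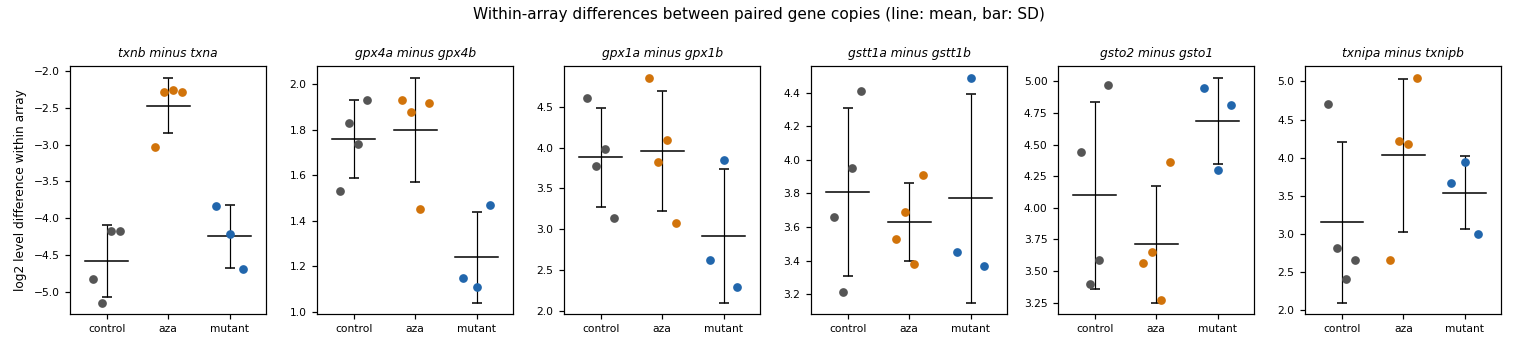
Log2 level of 1 gene copy minus that of the other on the same array (y axis, own scale per pair), by group, with group mean as a line and SD as a bar. Azacytidine arrays stand apart for txnb minus txna, at -3.04 to -2.26, and mutants stand below controls for gpx4a minus gpx4b.

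Across the whole set, some arrays stood apart within their groups. Mutant 6 was the lowest of the 3 mutants for 22 of 43 members (51.2%, against 29.8% of all probe sets), including prdx2, prdx3, sod1, sod2, gpx4a, gstt1a and gstk1. It also had the lowest hepatocyte marker mean, 9.95 against 10.69 and 10.84. Azacytidine 6 was the lowest of its 4 for 19 members (44.2%, against 22.8%), among them prdx2, prdx3, prdx4, sod1, sod2, mgst3a and gstk1. Its hepatocyte marker mean was the highest of its group at 12.47, and its exocrine pancreas mean, 7.21, was also the highest there. Azacytidine 2 was the lowest for 0 members (0.0%, against 16.3%). The median SD of the 43 genes was 0.3 in controls, 0.33 with azacytidine and 0.38 in mutants.

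The 8 genes that fell in mutants did so together with the hepatocyte markers, of which 13 of 19 fell and 0 rose, with a median of -0.87. Of all probe sets 5.87% were called lower and 6.23% higher. In bulk tissue, fewer hepatocytes in a sample and less RNA per hepatocyte cannot be told apart. With the mean of hepatocyte markers as a covariate, chosen after seeing the data, 0 of the 43 genes were called in mutants against controls, where 3 of 12784 probe sets were called lower and 0 higher. That covariate did not overlap between mutants and controls, so it and the genotype cannot be told apart. With the mean of neural, muscle and epidermis markers as a covariate, 0 of the 43 were called in any of the 3 comparisons. Over all probe sets that fit called 3 higher and 56 lower between mutants and controls. It called 0 with azacytidine against control, and 0 higher and 8 lower in mutants against azacytidine. This covariate did not overlap between the groups either, so it and the group cannot be told apart.

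Of 12 measured NADPH supply genes from a list of 18, 3 rose and 1 fell in mutants, and the median was 0.07. Over all probe sets 6.23% were called higher and 5.87% lower, so 1 of 12 lower is near that share. The cytosolic malic enzyme gene me1 fell from 9.95, 9.36, 9.63 and 9.88 in controls to 4.94, 5.54 and 4.98, by 4.55 ± 0.37 (adjusted p = 3.2e-05). The genes idh2 and me3, which encode mitochondrial NADPH-forming dehydrogenases, rose by 1.88 ± 0.43 and 1.60 ± 0.4 (adjusted p = 0.015 and 0.022). For nnt and mthfd2, also mitochondrial, the differences were 0.09 ± 0.28 and 0.05 ± 0.61 (adjusted p = 0.89 and 0.97). The pentose phosphate gene pgd rose by 1.37 ± 0.33 (adjusted p = 0.02), from 7.83, 8.92, 8.48 and 8.2 to 10.39, 9.32 and 9.48. With azacytidine 0 of the 12 were called in limma, where 0.579% of all probe sets were called either way. At an unadjusted p under 0.05, 0 were higher and 0 lower, against 5.23% and 9.93% of all probe sets.

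Of 12 genes for cysteine supply, glutathione breakdown and export, from a list of 28, 2 rose and 1 fell in mutants, with a median of -0.25, against 6.23% higher and 5.87% lower of all probe sets. The sulfurtransferase gene mpst, which draws on cysteine, fell by 1.49 ± 0.36 (adjusted p = 0.019). The transporter heavy-chain gene slc3a2b rose by 1.79 ± 0.52 (adjusted p = 0.044), with mutant 3 at 5.92 inside the control range of 4.47 to 6.07. The conjugate exporter gene abcc3 lay below the 10th percentile on all 4 controls, and its rise was 0.84 with levels set at that percentile (adjusted p = 0.007). The transsulfuration gene cth, which releases cysteine, differed by -1.26 ± 0.43 from control (adjusted p = 0.081) and was 1.82 ± 0.43 lower than with azacytidine (adjusted p = 0.0091). With azacytidine 0 of the 12 were called in limma, against 0.579% of all probe sets either way. At an unadjusted p under 0.05, 2 were lower and 0 higher, against 9.93% and 5.23% of all probe sets.

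Of 20 other Nrf2 and stress target genes, from a list of 39 that holds several selenoprotein genes, 6 fell and 0 rose in mutants, with a median of -0.52, against 5.87% and 6.23% of all probe sets. Among them were selenop2, which encodes a secreted selenoprotein P, and sephs3, of the selenophosphate synthetase family. The selenop2 level was 11.96, 11.97, 11.51 and 11.64 in controls and 11.19, 10.11 and 7.94 in mutants, a fall of 2.02 ± 0.54 (adjusted p = 0.031), while sephs3 fell by 0.85 ± 0.2 (adjusted p = 0.019). The aldehyde reductase gene akr7a3 fell by 2.06 ± 0.37 (adjusted p = 0.0044) and the epoxide hydrolase gene ephx1 by 1.52 ± 0.43 (adjusted p = 0.038). The methionine sulfoxide reductase gene msraa fell by 1.81 ± 0.37 (adjusted p = 0.0095). The methionine sulfoxide reductase genes msrb1a and msrb3 differed by 0.20 ± 0.35 and 0.18 ± 0.37 (adjusted p = 0.78 and 0.82). The genes ephx1, esd, cth, nnt, mthfd2, msrb3, fth1a, slc40a1 and selenow1 are named after their values were seen. The formaldehyde pathway gene esd, whose enzyme frees glutathione from its formyl adduct, fell by 1.21 ± 0.33 (adjusted p = 0.036). In mutants 8 of the 20 were lower and 3 higher at an unadjusted p under 0.05, against 11.3% and 15.2% of all probe sets. The 3 higher, none of them called, were fth1a, slc40a1 and selenow1. They differed by 0.25 ± 0.09, 1.16 ± 0.39 and 1.23 ± 0.43 (limma adjusted p = 0.081, 0.074 and 0.087). With azacytidine 0 of the 20 were called in limma, against 0.579% of all probe sets either way. At an unadjusted p under 0.05, 1 was higher, a share near the 5.23% of all probe sets. That was msrb1a, a methionine sulfoxide reductase gene, at 5.96, 6.46, 6.02 and 6.84 in controls and 7.17, 8.3, 7.37 and 8.24 with azacytidine, a difference of 1.45 ± 0.33 without overlap (adjusted p = 0.071).

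**Figure D5:**
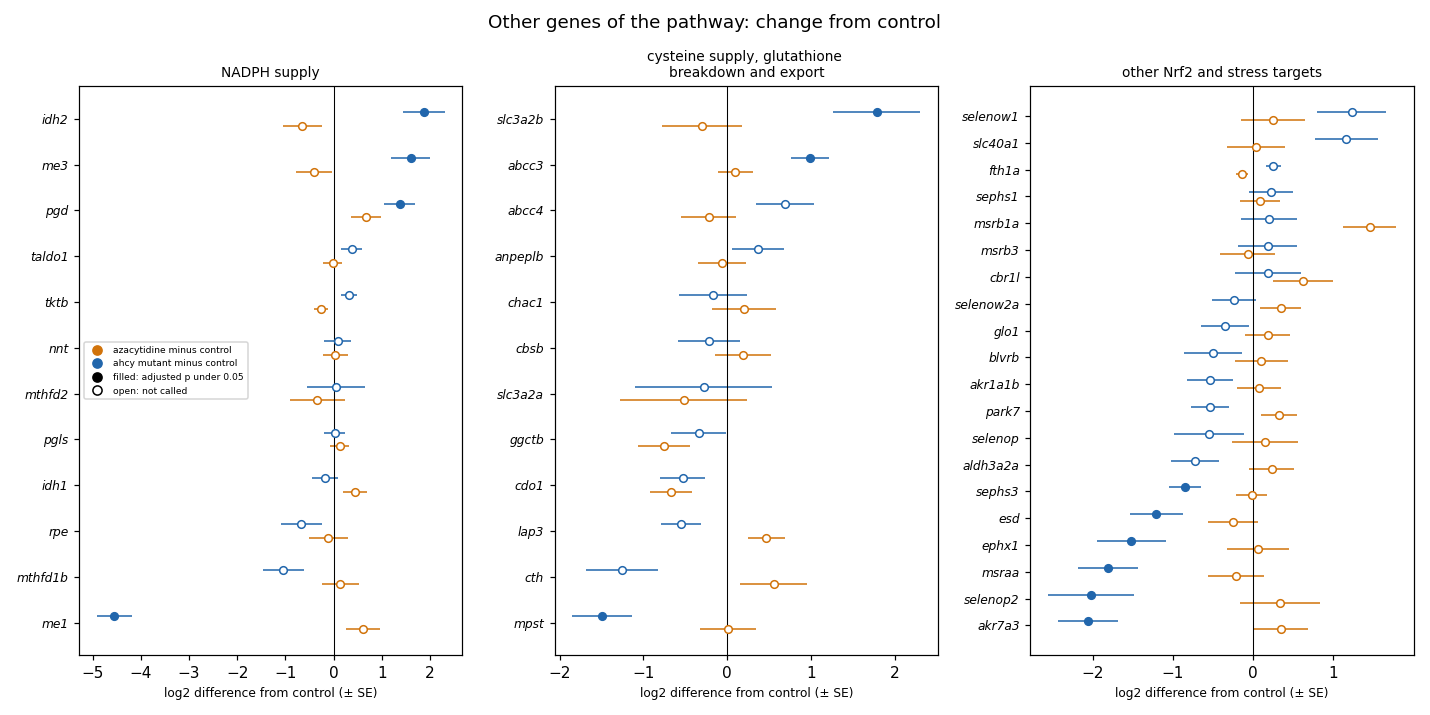
Log2 difference from control (x axis, ± standard error) of 12 NADPH supply genes, 12 cysteine and glutathione handling genes and 20 other Nrf2 and stress target genes, for azacytidine (orange) and ahcy mutants (blue). Filled points passed an adjusted p of 0.05: all belong to mutants, with me1 at -4.55 the farthest from 0.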

How the data were processed

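Deposited values are log2 expression levels for each probe set on each array. The submitters' processing notes name GCRMA and Partek, without versions. GCRMA subtracts a sequence-dependent background and normalises across arrays, so low levels depend most on the background estimate. Filters applied before deposit are not given in the sources used here. Of 12830 probe sets, 46 array controls were left out and 12784 tested without further filtering. The table held 0 columns of other samples.

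Symbols came from the platform annotation (8994 probe sets with 1 symbol, 110 with several, 3680 with none). Gene IDs of 8926 matched the RefSeq table, which changed 1 symbol and 0 among the members.

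limma 3.58.1 in R 4.3.3 fitted all 11 arrays with 3 group means (8 residual degrees of freedom) and a mean-dependent variance prior, 2-sided, with Benjamini-Hochberg adjustment over all probe sets within a comparison. Calls are at an adjusted p under 0.05. Differences are given ± standard error and with 95% intervals of that fit. The script was tested on simulated data.

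The members and gene lists were chosen with earlier results of these data known. List genes were matched by symbol, or by a unique synonym of a gene whose symbol starts with the same 2 letters. The rule for naming took every called member, the brightest of each role group, the member with the largest change from control where a role group had no call, every probe set of a named gene, and up to 4 called genes by smallest p of each further list (or the largest change). Other members are named to account for the whole set. Alternatives changed the variance prior, the filter on dim probe sets, scaling between arrays, the groups in the fit, array weights, the sample number as a block, marker covariates, the probe set of a gene, a minimum change of 0.5, and single arrays.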

Additional observations from a re-analysis of the deposited data

Results flagged for a closer look

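Within the control and azacytidine groups, 86 sets of 4 arrays were examined for 1 array far from the rest (gap over range above Dixon's critical value), and 8 were marked, where chance marks about 1 in 20. Azacytidine 6 was high for gsto1 (6.1, against 3.22 to 3.65) and gsto2 (10.46, against 6.65 to 7.3). Azacytidine 5 was low for nfe2l2a (5.65, against 6.25 to 6.29). Control 1 was low for txnrd3 (10.38, against 11.27 to 11.4). In 3 further genes control 1 was the high array in a tight group: mgst3a (10.53, against 10.43 to 10.44), gpx8 (5.47, against 5.19 to 5.23) and txndc9 (8.87, against 8.61 to 8.65). Control 4 was low for txnl4b (4.35, against 4.77 to 4.83).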

How the results depend on the processing

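Counts of called members depended most on covariates and on the sample number as a block. With azacytidine the 2 genes called higher became 1 with only the 2 groups in the fit, and 0 with the fixed replicate block, the covariate of neural, muscle and epidermis markers, a minimum change of 0.5, the hepatocyte covariate, or controls 2 and 4 left out. The last 2 settings were added after seeing the data. Over all probe sets the 51 called higher became 45 with only the 2 groups in the fit. They became 20 with the minimum change and 19 without controls 2 and 4. In mutants against controls the count of 0 higher became 1 after cyclic loess (txna), with array weights (nfe2l3) and without controls 2 and 4 (prdx1). The 8 lower became 2 with the minimum change and 0 with the fixed replicate block and with each covariate. For all probe sets, the 797 higher became 674 after cyclic loess, 1070 with array weights and 347 without controls 2 and 4. The 750 lower became 281 with the minimum change. In mutants against azacytidine the 3 higher became 6 with array weights and 0 with the fixed replicate block, each covariate and the minimum change. The 12 lower there became 4 with the minimum change and 0 with the fixed replicate block and each covariate. Among all probe sets in that comparison, the 2329 higher became 2875 with array weights and 818 with the minimum change. The 1424 lower became 577 with the minimum change. The fixed replicate block fits a term for each sample number, and few numbers recur between groups. It left few residual degrees of freedom and called far fewer of all probe sets than the main fit, so its counts of 0 say little about the members. The marker covariates did not overlap between the groups, and their fits also called far fewer of all probe sets than the main fit. Their counts of 0 thus cannot tell tissue content from group. The cause of the other shifts was not tested. Over fits that left out 1 array, azacytidine gave 1 to 2 higher and 0 to 0 lower, mutants against controls 0 to 1 higher and 5 to 9 lower, and mutants against azacytidine 1 to 5 higher and 10 to 13 lower. Some differences changed sign, none of them called after the change. With the hepatocyte covariate, mutant minus control was 0.18 for prdx2 and 0.22 for sod1. Mutant minus azacytidine was then 0.02 for gpx4a, 0.25 for gstt1a, -0.01 for nqo1, 0.5 for prdx2, 0.43 for prdx3, 0.37 for sod1, 1.85 for sod2, 0.11 for txnb and -0.7 for txnipb. With the other covariate, mutant minus azacytidine was -0.43 for gsto2, -0.26 for nqo1, 0.53 for prdx3 and 0.43 for sod2. Deviations of same-numbered arrays from their group means correlated between -0.206 and 0.031, so no pairing by sample number was seen. Few numbers are shared and the labels do not explain them, so this cannot show whether such arrays share a clutch or batch. As a random replicate block the number left counts at 2, 0, 0, 8, 3 and 12. The fixed replicate block called 0 probe sets with azacytidine, and 9 in mutants against controls. Depth is not defined for arrays, and levels under the 10th percentile of an array limit txnl4b, gsto1, abcc3 and the leukocyte marker cxcr4b.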
